A study of Mus musculus with 9 samples.

Results

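The genes described here are 35 enzymes and regulators of sterol and fatty acid synthesis, taken from a list of pathway genes that was chosen with earlier results of these arrays known: 7 enzymes of the mevalonate route, 12 that turn its product into cholesterol, 5 regulators of sterol synthesis and 11 enzymes of fatty acid synthesis, elongation and desaturation. Of these, 34 were measured among the 17097 genes of the array table, each by its brightest single-gene probe set (by mean over the 9 arrays). The expression of Pmvk was not analysed here. RNA came from CD8+ T cells of the spleen that recognise the model antigen OVA and were sorted on day 9 after mice were infected with Listeria monocytogenes. The 4 WT samples came from C57BL/6 mice with Tsc1-fl/fl alleles and no cre, and the 5 Tsc1-/- samples from mice with the same alleles and Granzyme B-cre, which acts in cells that have switched on the granzyme B gene. The Tsc1 protein belongs to a complex that holds back the growth kinase mTORC1. Whether samples came from different animals is not stated in the labels, so p-values speak only of the spread among these samples. Every Tsc1-/- sample also carried the cre, and an effect of the cre and one of Tsc1 loss cannot be told apart.

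Cells build cholesterol from acetyl-CoA through mevalonate, isoprenoid diphosphates, squalene and lanosterol, and they build fatty acids from the same acetyl-CoA through malonyl-CoA. Transcription of both routes is driven by SREBP factors, which Scap carries out of the endoplasmic reticulum when sterol is low and which Insig proteins hold back when sterol is plentiful. Activated T cells use both routes to make membrane, and mTORC1 is known to promote SREBP activity.

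The samples read as CD8+ T cells, with Cd8a at 12.08 in WT and 12.10 in Tsc1-/- and Cd3e at 11.81 and 11.82 (mean log2 expression). The median difference of the 8 measured CD8 T cell markers was 0.02. One of these markers, the granzyme B gene Gzmb, was higher in Tsc1-/- by 0.58 (SE 0.11, adjusted p = 0.0339, limma), without overlap between genotypes. Tsc1, the targeted gene, read 7.56 to 7.77 in WT and 7.27 to 7.51 in Tsc1-/-, a difference of -0.26 (SE 0.08, adjusted p = 0.114, limma), and where its probe set lies relative to the deleted part was not analysed here. Each difference given is the Tsc1-/- mean minus the WT mean, in log2 units, and a gene is called higher or lower at a Benjamini-Hochberg adjusted p under 0.05 over all genes (limma).

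In Tsc1-/- cells 4 sterol enzymes, 1 sterol regulator and 1 fatty acid enzyme were higher than in WT. Of the 34 measured members, 6 rose and 0 fell (limma; at an unadjusted p under 0.05, 11 were higher and 1 lower). The 6 are 17.6% of the members, against 0.971% of all genes called higher and 0.31% called lower. At the unadjusted threshold the shares over all genes were 9.83% higher and 7.34% lower, and 32.4% of the members were higher. Those that rose were Idi1 and Fdps of the mevalonate route, Cyp51 and Dhcr7 of the route to cholesterol, the regulator Insig1, and Fads1, a fatty acid desaturase. A positive difference was seen in 28 of 34 members (82.4%), against 48.2% of all genes. All Tsc1-/- arrays lay above all WT arrays in 7 members (20.6%, against 5.08% of all genes) and below them in 1 (2.94%, against 2.88%). Without WT replicate 1, WT replicate 2 or Tsc1-/- replicate 5, limma called 0 members (11 to 13 at an unadjusted p under 0.05) and only 2 or 3 of all 17097 genes, without WT replicate 3 or Tsc1-/- replicate 1 it called 3, without WT replicate 4 it called 4, and without Tsc1-/- replicate 2, 3 or 4 it called 1. Of all 17097 genes, 70 were called higher without WT replicate 3, 142 without Tsc1-/- replicate 1 and 297 without WT replicate 4. Without Tsc1-/- replicate 2, 3 or 4, 6, 41 and 21 genes were called higher. After quantile normalization between arrays limma called 1 member, Cyp51, and 43 of 17097 genes higher.

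**Figure D1:**
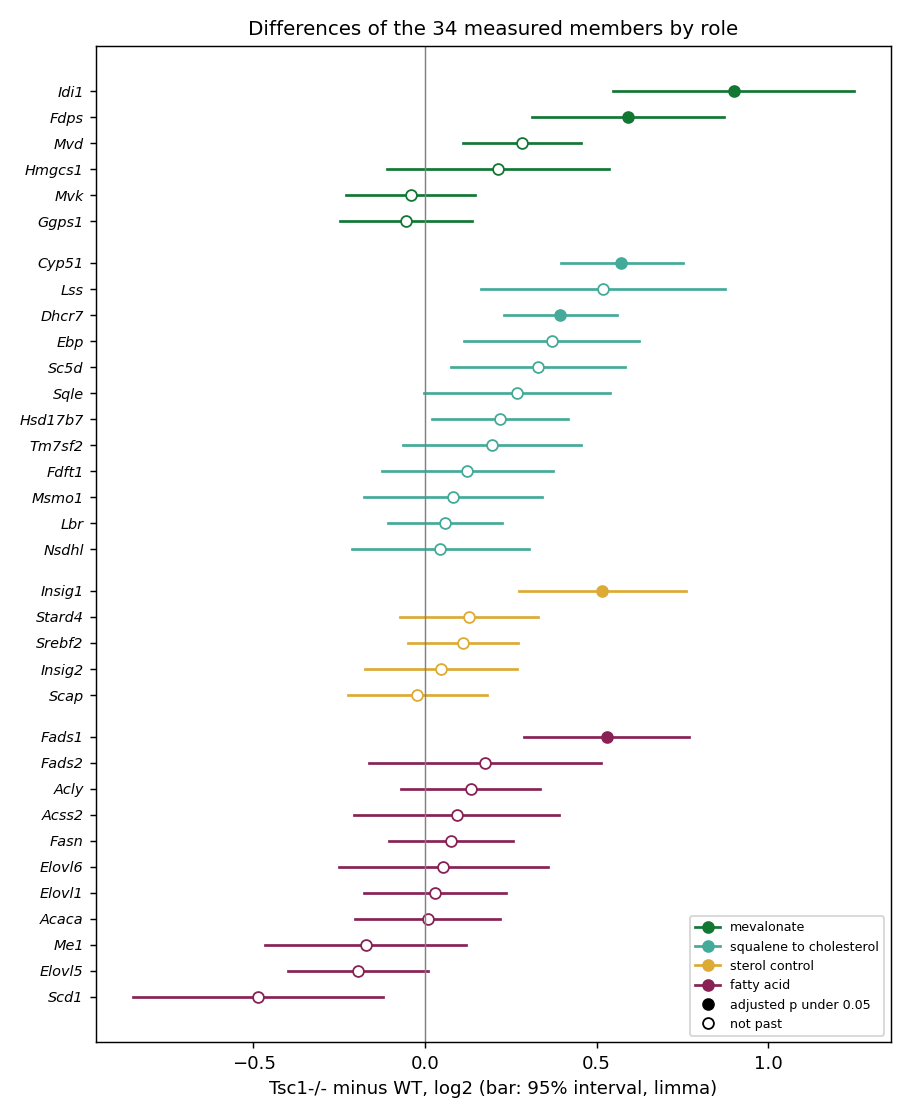
Difference between genotypes (x axis, Tsc1-/- minus WT, log2) for each of the 34 measured members (y axis), grouped by role, with limma's 95% interval as a bar; filled points passed the threshold. The 6 filled points lie between 0.39 and 0.90, and the 11 fatty acid enzymes spread from -0.49 to 0.53.

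Along the mevalonate route, 2 of 6 measured enzymes rose. Idi1, which interconverts the isoprenoid building blocks isopentenyl and dimethylallyl diphosphate, read 7.54, 7.74, 8.24 and 8.33 in WT replicates 1 to 4 and 9.17, 8.95, 8.78, 8.71 and 8.71 in Tsc1-/- replicates 1 to 5. Its lowest Tsc1-/- array was above its highest WT array, and WT replicates 3 and 4 stood well above WT replicates 1 and 2. Idi1 rose by 0.90 (SE 0.16, adjusted p = 0.0339, limma), a 1.87-fold difference, the largest among the members.

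Fdps, which joins those units into farnesyl diphosphate, the branch point towards sterols and protein prenylation, read 6.19, 6.22, 6.45 and 6.18 in WT and 7.20, 6.97, 6.59, 6.57 and 6.92 in Tsc1-/-. The genotypes did not overlap, and Tsc1-/- replicates 3 and 4 lay nearest to WT. Fdps rose by 0.59 (SE 0.13, adjusted p = 0.0483, limma). Mvd, the decarboxylase that makes isopentenyl diphosphate, read 7.36, 7.33, 7.32 and 7.41 in WT and 7.78, 7.63, 7.48, 7.61 and 7.71 in Tsc1-/-. Its arrays did not overlap either, and its difference of 0.28 (SE 0.08, adjusted p = 0.0922, limma) did not pass.

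Hmgcs1, which makes the HMG-CoA that enters the route, was dim, at 5.51, 5.21, 5.16 and 5.43 in WT and 5.27, 6.05, 5.64, 5.43 and 5.32 in Tsc1-/-. These arrays overlapped, and the 95% interval of its difference ran from -0.11 to 0.54. Mvk, the mevalonate kinase, differed by -0.04 (interval -0.23 to 0.15), and Ggps1, which makes geranylgeranyl diphosphate for prenylated GTPases, by -0.06 (interval -0.25 to 0.14). Mvk and Ggps1 were the 2 sterol branch enzymes with a negative difference by the brightest probe set.

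All 12 enzymes from squalene to cholesterol had a positive difference by the brightest probe set, of which 2 passed the threshold. Cyp51, the demethylase that acts on lanosterol, read 6.86, 6.81, 6.89 and 6.84 in WT, within an SD of 0.03, and 7.62, 7.28, 7.34, 7.44 and 7.43 in Tsc1-/-. The genotypes did not overlap, and Tsc1-/- replicate 1 was highest. Cyp51 rose by 0.57 (SE 0.08, adjusted p = 0.0219, limma), the smallest adjusted p of the members. Dhcr7, the reductase of the last step, read 9.08, 9.19, 9.19 and 9.01 in WT and 9.43, 9.62, 9.53, 9.50 and 9.48 in Tsc1-/-. Its genotypes did not overlap, and here Tsc1-/- replicate 1 was the lowest of its group. Dhcr7 rose by 0.39 (SE 0.08, adjusted p = 0.0359, limma).

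Of the 10 others, Lss, the cyclase that closes squalene epoxide into lanosterol, differed most (0.52, interval 0.16 to 0.87, adjusted p = 0.128), on a dim probe set. Ebp, a sterol isomerase, differed by 0.37 (interval 0.11 to 0.62), Sc5d, a sterol desaturase, by 0.33 (interval 0.08 to 0.58) and Hsd17b7, a ketosteroid reductase, by 0.22 (interval 0.02 to 0.42). Sqle, the epoxidase that commits squalene to sterols, read 6.34, 6.09, 6.73 and 6.61 in WT and 6.61, 6.66, 6.92, 6.64 and 6.71 in Tsc1-/-. WT replicate 3 lay within the Tsc1-/- range and WT replicate 4 just below it, and the difference of 0.27 did not pass (adjusted p = 0.295, limma). Tm7sf2 (0.20) and Lbr (0.06), both sterol reductases, the squalene synthase gene Fdft1 (0.12), and Msmo1 (0.08) and Nsdhl (0.04), which remove methyl groups, had intervals that included 0.

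Over the sterol branch, meaning both routes together, 4 of 18 measured enzymes rose (22.2%), 5 of 18 did not overlap between genotypes (27.8%) and 9 of 18 had an unadjusted p under 0.05 with a positive difference, against 0.971%, 5.08% and 9.83% of all genes. The median difference was 0.24, against -0.01 over all genes.

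Among the regulators, Insig1 rose, and the SREBP gene Srebf2 and the escort gene Scap did not pass. The expression of Srebf1, the other SREBP gene, was not analysed here. Insig1, the sterol-sensing anchor that is itself an SREBP target, read 8.27, 7.85, 8.23 and 8.44 in WT and 8.71, 8.81, 8.81, 8.56 and 8.67 in Tsc1-/-. The genotypes did not overlap, and WT replicate 2 lay below the other WT arrays. Insig1 rose by 0.52 (SE 0.11, adjusted p = 0.0483, limma). Its relative Insig2 differed by 0.05 (interval -0.17 to 0.27).

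Srebf2, which encodes the SREBP factor most tied to sterol genes, read 8.70, 8.67, 8.73 and 8.84 in WT and 8.80, 8.89, 8.91, 8.89 and 8.75 in Tsc1-/-. These overlapped, and the interval of its difference was -0.05 to 0.27. The second Srebf2 probe set went the other way, at -0.06, and did not pass (adjusted p = 0.81 over all probe sets, limma). Scap read 7.99, 7.75, 7.54 and 7.83 in WT and 7.79, 7.81, 7.65, 7.78 and 7.74 in Tsc1-/-, all of the latter within the WT range, with an interval of -0.22 to 0.18. Stard4, which carries cholesterol between membranes, differed by 0.13 (interval -0.07 to 0.33) by its brightest probe set.

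**Figure D2:**
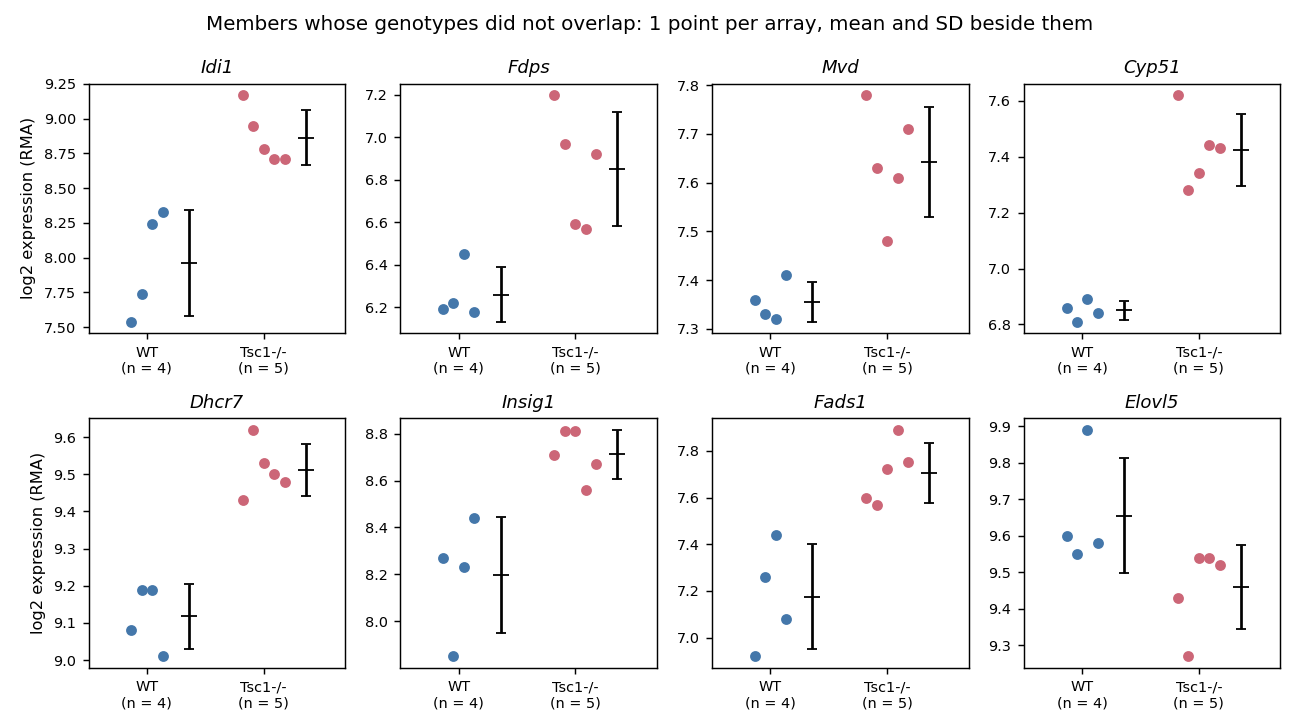
Log2 expression in each array (y axis; scales differ by gene and do not start at 0) of the 8 members whose genotypes did not overlap, with the mean and SD of 4 WT and 5 Tsc1-/- arrays. Idi1 spans 7.54 to 8.33 in WT and 8.71 to 9.17 in Tsc1-/-, and Elovl5 is the one member with all Tsc1-/- arrays below WT, by a gap between 9.54 and 9.55.

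Promoters are shown for 3 of the members that rose, each with a single window, and for Hmgcs1, the one member whose window held the searched sterol element; Dhcr7, with 3 windows, is not shown. RefSeq windows (assembly GRCm38.p6, 250 bases before to 50 after each annotated start) were matched for 29 of the 35 listed members. The lines below give the 250 bases before the start, 5′ to 3′ on the gene's strand, with matches to TCACNCCAC (sterol regulatory element) or CCAAT (the NF-Y box; ATTGG on the other strand) in capitals. The windows lie at chr13:8885356-8885605 (plus strand) for Idi1, chr5:4104698-4104947 (minus strand) for Cyp51, chr5:28071162-28071411 (plus strand) for Insig1 and chr13:119690101-119690350 (plus strand) for Hmgcs1.
Idi1: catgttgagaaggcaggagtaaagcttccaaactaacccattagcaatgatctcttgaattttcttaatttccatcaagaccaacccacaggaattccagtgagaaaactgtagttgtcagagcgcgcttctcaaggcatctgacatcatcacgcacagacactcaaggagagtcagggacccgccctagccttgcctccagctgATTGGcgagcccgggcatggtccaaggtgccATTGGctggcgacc
Cyp51: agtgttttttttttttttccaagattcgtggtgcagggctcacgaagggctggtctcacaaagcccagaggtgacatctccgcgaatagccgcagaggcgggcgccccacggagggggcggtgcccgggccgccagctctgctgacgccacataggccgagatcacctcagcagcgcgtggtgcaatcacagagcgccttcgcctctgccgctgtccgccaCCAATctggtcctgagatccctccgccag
Insig1: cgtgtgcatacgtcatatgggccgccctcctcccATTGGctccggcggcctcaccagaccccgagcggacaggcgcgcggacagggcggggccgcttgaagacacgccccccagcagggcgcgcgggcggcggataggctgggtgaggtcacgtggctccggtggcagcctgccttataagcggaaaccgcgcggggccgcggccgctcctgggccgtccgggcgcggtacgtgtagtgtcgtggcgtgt
Hmgcs1: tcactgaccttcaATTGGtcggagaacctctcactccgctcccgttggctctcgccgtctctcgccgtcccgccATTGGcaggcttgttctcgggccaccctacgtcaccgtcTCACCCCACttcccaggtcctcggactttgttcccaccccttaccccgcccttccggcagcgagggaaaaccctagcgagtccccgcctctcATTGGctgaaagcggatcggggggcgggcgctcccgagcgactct

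NF-Y is a CCAAT-binding factor known to act beside SREBP at sterol gene promoters. Counting either strand of the whole window, CCAAT occurred in 16 of 16 sterol branch genes with a window (Pmvk included), in 3 of 4 sterol regulators and in 6 of 9 fatty acid genes, against 42.3% of 13605 genes measured on the arrays and 37.4% of all windows. In Idi1 the matches began at -45 and -14 from the annotated start, in Cyp51 at -29 and in Insig1 at -216. In Hmgcs1 they began at -237, -176, -45 and 10.

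The sterol element as spelled here occurred in 1 of the 29 genes, Hmgcs1, at -137, in 204 of the 13605 measured genes and in 1.24% of all windows. GGGCGG, the GC box that Sp1 binds, was in 14 of 16 sterol branch and 5 of 9 fatty acid genes (57.3% of measured genes, 35.7% of all windows), and CACGTG, an E-box, in 3 of 16 and 1 of 9 (10.2% and 7.15%). Among the 123 matches in the members' windows, 1 pair of different motifs overlapped. Pairs of the same motif were not counted, and in Fasn the CCAAT match at -62 overlapped one on the other strand at -59. A match describes letters and was not tested against the expression values, and genes with several windows were counted if any held the motif.

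Among the 11 fatty acid enzymes, 1 rose (9.09%, against 0.971% of all genes). A positive difference was seen in 8 of the 11, against 48.2% of all genes. At an unadjusted p under 0.05 (limma), 1 was higher and 1 lower, against 9.83% and 7.34% of all genes. Fads1, the desaturase that makes arachidonic acid, acts on dietary polyunsaturated chains and not on newly made palmitate. It read 6.92, 7.26, 7.44 and 7.08 in WT and 7.60, 7.57, 7.72, 7.89 and 7.75 in Tsc1-/-. The genotypes did not overlap, and Fads1 rose by 0.53 (SE 0.11, adjusted p = 0.0425, limma). Its partner Fads2 differed by 0.17 (interval -0.16 to 0.51) by its brightest probe set. The other Fads2 probe sets went the other way, at -0.22 and -0.16, and neither passed (adjusted p = 0.357 and 0.420 over all probe sets, limma).

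The enzymes that make palmitate did not pass. Fasn, the fatty acid synthase, read 7.65, 7.65, 7.81 and 7.63 in WT and 7.92, 7.75, 7.70, 7.81 and 7.61 in Tsc1-/-. Acaca, the carboxylase that makes malonyl-CoA, read 7.50, 7.74, 7.64 and 7.49 in WT and 7.63, 7.42, 7.81, 7.47 and 7.68 in Tsc1-/-. Both overlapped, with intervals of -0.11 to 0.26 for Fasn and -0.20 to 0.22 for Acaca. Acly, which cleaves citrate to supply acetyl-CoA, read 8.94, 9.01, 8.83 and 9.24 in WT and 9.11, 9.27, 9.05, 9.08 and 9.19 in Tsc1-/-, with an interval of -0.07 to 0.33. Acss2, which makes acetyl-CoA from acetate, differed by 0.09, and Me1, the malic enzyme that supplies NADPH, by -0.17.

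Scd1, the desaturase that makes oleate, was dim, at 5.30, 5.55, 5.22 and 4.86 in WT and 4.86, 5.07, 4.95, 4.29 and 4.55 in Tsc1-/-. WT replicate 4 lay among the Tsc1-/- arrays, and the difference of -0.49 (SE 0.17, adjusted p = 0.158, limma) did not pass. With the level of macrophage and monocyte markers in the fit it was 0.01 (adjusted p = 0.991, limma). Of the elongases, Elovl5, which lengthens polyunsaturated chains, read 9.60, 9.55, 9.89 and 9.58 in WT and 9.43, 9.27, 9.54, 9.54 and 9.52 in Tsc1-/-. Its arrays did not overlap, by a gap of the size of rounding, and its difference of -0.20 (adjusted p = 0.310, limma) did not pass. Elovl6 (0.05) and Elovl1 (0.03) had intervals that included 0.

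Set side by side within each array, the sterol and fatty acid branches differed in how they followed genotype. Each branch was given a level per array, the mean over its genes after each was centred on its own mean over all 9 arrays. The sterol branch read -0.207, -0.165, -0.150 and -0.103 in WT and 0.163, 0.150, 0.117, 0.078 and 0.117 in Tsc1-/-, a difference of 0.281 with no overlap. The fatty acid branch read -0.125, 0.050, 0.064 and -0.036 in WT and 0.003, 0.031, 0.035, -0.041 and 0.020 in Tsc1-/-, a difference of 0.022 with every Tsc1-/- array inside the WT range. The sterol level minus the fatty acid level was -0.144 ± 0.081 (SD, n = 4) over WT arrays, which ran from -0.215 to -0.067. Over Tsc1-/- arrays it was 0.115 ± 0.030 (SD, n = 5), from 0.082 to 0.160. The fatty acid branch had a median difference of 0.05. No test was made of these levels, because the members were chosen with results of these arrays known.

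**Figure D3:**
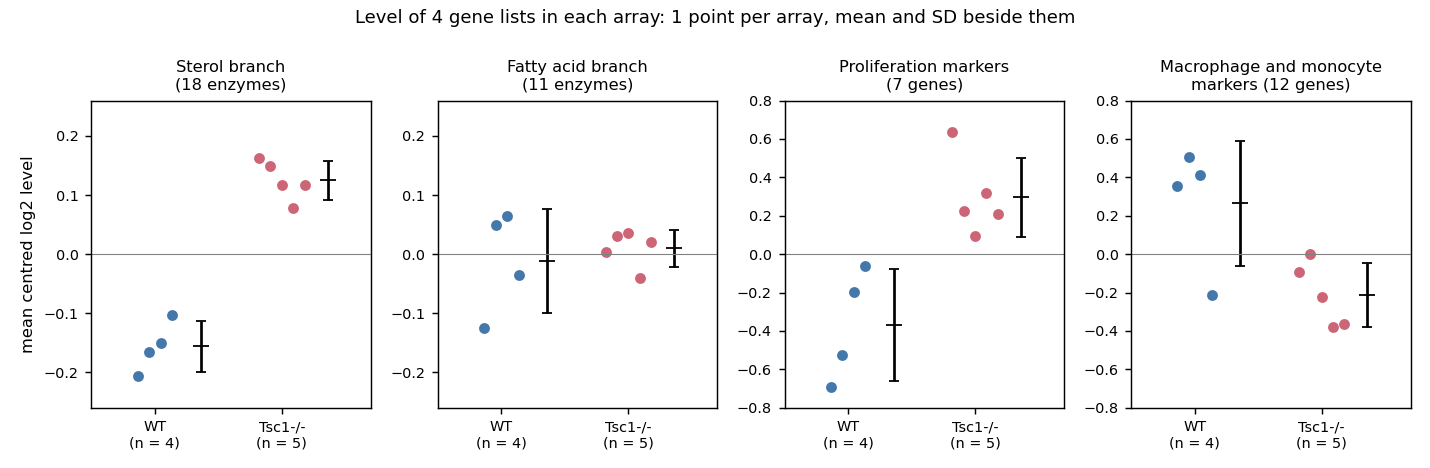
Level of 4 gene lists in each array (y axis, mean log2 value after centring each gene over all 9 arrays; both branch panels share a scale, as do both marker panels), with mean and SD. The sterol branch separates 4 WT arrays (-0.207 to -0.103) from 5 Tsc1-/- arrays (0.078 to 0.163), the fatty acid branch does not, proliferation markers also separate them, and macrophage markers overlap, with WT replicate 4 at -0.215.

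Levels of other gene groups moved with genotype beside the sterol branch. The proliferation markers Mki67, Top2a, Cdk1, Mcm2, Mcm5, Rrm1 and Pcna were higher in Tsc1-/- by 0.67 in mean level. Of these 7 markers 4 rose, whereas 0.971% of all genes were called higher. The level of the markers ran from -0.694 to -0.061 in WT and from 0.094 to 0.635 in Tsc1-/-. With this level as a covariate, the median difference of the sterol branch was 0.17 and that of the fatty acid branch -0.09. Idi1 then differed by 0.17, Fdps by 0.29, Insig1 by 0.38, Cyp51 by 0.42, Fads1 by 0.44 and Dhcr7 by 0.48. In that fit limma called 0 members and 0 of all genes, and 4 of 34 members had an unadjusted p under 0.05, near the share over all genes (1526 of 17097). The part of proliferation in these results was not tested.

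All 12 macrophage and monocyte markers and all 6 measured B cell markers had a negative difference, with 0 called (limma; 8 and 2 at an unadjusted p under 0.05). So did all 5 neutrophil and all 4 dendritic cell markers measured, also with 0 called (0 and 1 at an unadjusted p under 0.05). Of all genes, 48.2% had a positive difference. The neutrophil marker S100a8 averaged 9.66 in WT and 8.94 in Tsc1-/-, where it ran from 6.65 to 10.68. In sorted bulk cells, fewer cells of a type and less RNA per cell cannot be told apart. The macrophage and monocyte level was 0.356, 0.506, 0.414 and -0.215 in WT and -0.380 to 0.002 in Tsc1-/-, and the mean log2 level of the list was 6.52 to 7.24 in WT and 6.35 to 6.74 in Tsc1-/-. WT replicate 4 lay within the Tsc1-/- range of that level. Its sterol branch level of -0.103 was the highest of the WT arrays and below all 5 Tsc1-/- arrays. The part of other cell types in these results was not tested. With the macrophage level as a covariate the median sterol difference was 0.26, Fdps differed by 0.77, Idi1 by 0.76, Cyp51 by 0.56, Fads1 by 0.53, Dhcr7 by 0.50, Insig1 by 0.37 and Sqle by 0.11. In that fit limma called 0 members and 0 of all genes (7 members and 1675 of 17097 genes at an unadjusted p under 0.05).

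Of 21 members with several probe sets, 12 had all probe sets in 1 direction. When all 28898 single-gene probe sets were tested by themselves, a check added after the data were seen, 0.602% were called higher and 0.225% lower, and 5 of the members' 63 probe sets passed, in 4 genes: Idi1, Cyp51, Dhcr7 and Stard4. Fdps, Insig1 and Fads1 did not pass in that larger table (adjusted p = 0.0584, 0.0584 and 0.0510, limma).

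Both Idi1 probe sets passed, at 0.90 and 0.68. The second Stard4 probe set read 6.40, 6.67, 6.63 and 6.61 in WT and 7.31, 7.10, 7.15, 7.04 and 7.42 in Tsc1-/-. Those arrays did not overlap, and this probe set rose by 0.63 (SE 0.10, adjusted p = 0.0266, limma), whereas the brightest and the third Stard4 probe sets differed by 0.13 and 0.22. The Mvd probe sets differed by 0.28 and 0.42, and neither passed (adjusted p = 0.115 and 0.0818, limma).

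Only the brightest of 3 Cyp51 probe sets passed, the others differing by -0.05 and 0.21, and the second Fads1 probe set differed by -0.04. The 3 Ggps1 probe sets all had negative differences, from -0.23 to -0.06, and both Scd1 probe sets did too (-0.49 and -0.25). Which transcripts or exons these probe sets read was not analysed here.

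**Figure D4:**
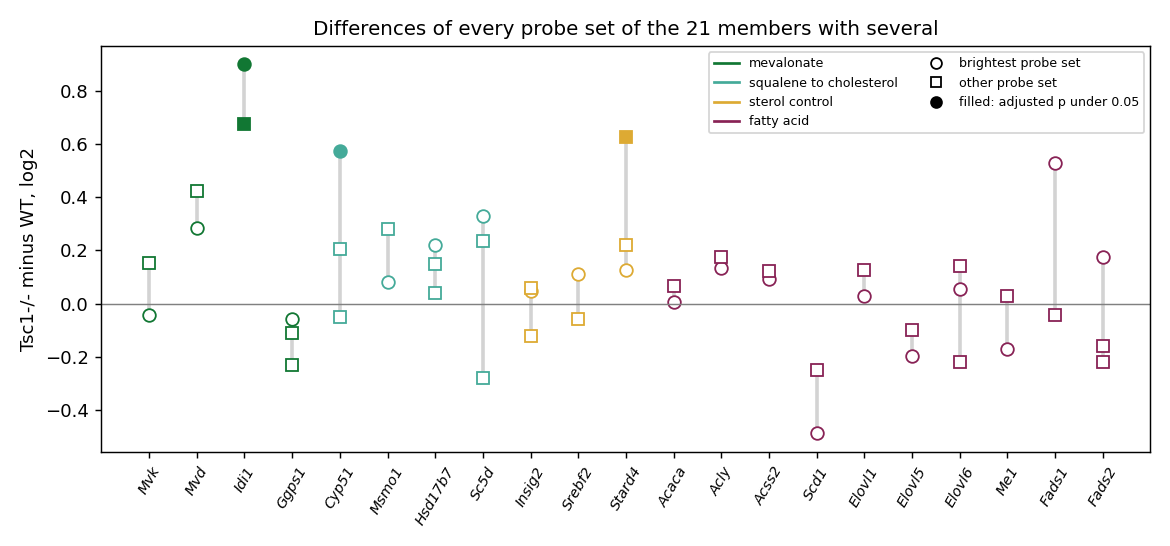
Difference between genotypes (y axis, Tsc1-/- minus WT, log2) of every probe set of the 21 members with several (x axis); circles are the brightest probe set, squares the others, and filled marks passed the threshold over all probe sets. Both Idi1 marks are filled, at 0.90 and 0.68, and for Stard4 the filled mark is the second probe set at 0.63.

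Other genes of these pathways showed 0 calls among 41 measured of 56 listed (limma; at an unadjusted p under 0.05, 3 were higher and 3 lower). A positive difference was seen in 25 of the 41, and in 48.2% of all genes. Of 12 genes of sterol transport and regulation, the smallest p-values were those of Mylip, the ligase that degrades the LDL receptor (-0.40, adjusted p = 0.127, limma), and Abcg1, an exporter of cholesterol (-0.50, adjusted p = 0.166, limma). Both are known targets of the sterol-activated receptor LXR. Mylip read 7.59, 7.43, 7.45 and 7.14 in WT and 6.66, 7.18, 7.07, 6.88 and 7.22 in Tsc1-/-, and Abcg1 read 8.85, 8.97, 8.84 and 8.20 in WT and 8.66, 7.82, 8.25, 8.13 and 8.21 in Tsc1-/-. In both genes WT replicate 4 was the low WT array and overlapped the Tsc1-/- arrays.

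Of 10 genes that use isoprenoids for prenylation and for ubiquinone, haem and dolichol synthesis, Rabggta, a subunit of the Rab prenyltransferase, differed by -0.22 (adjusted p = 0.166, limma), with all Tsc1-/- arrays (7.91 to 8.15) below WT (8.25 to 8.38). Pggt1b, the other of the pair with the smallest p, differed by 0.14. Of 19 genes of fatty acid supply and use, Mid1ip1, which promotes assembly of acetyl-CoA carboxylase, came closest to the threshold at 0.40 (SE 0.09, adjusted p = 0.0529, limma). It read 7.50, 7.56, 7.32 and 7.37 in WT and 7.83, 7.99, 7.83, 7.63 and 7.93 in Tsc1-/-, without overlap. Idh1, the cytosolic NADPH source, differed by 0.42 (interval 0.05 to 0.78).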

How the data were processed

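RNA (12 ng per sample, amplified and labelled with NuGEN kits per the labels' protocols) was measured on 1 array per sample. Per the submitters' processing notes, the authors used RMA and Partek 6.5, and the deposited values are log2 expression by probe set. The sources used here do not give a genome build or RMA's options. Array medians ran from 5.97 to 6.05, so the columns do not share one distribution, and a further quantile normalization was among the alternatives.

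Of 45037 probe sets, 28898 had 1 annotated gene, with symbols updated by Entrez identifier (28689 matched, RefSeq table of GRCm38.p6). The brightest probe set stood for each of 17097 genes. All genes were fitted with limma 3.58.1 (R 4.3.3; lmFit, eBayes, genotype as the only term, two-sided, Benjamini-Hochberg over all genes, no filter), a procedure tested on simulated data. In that simulation it recovered 53% of planted differences of 0.5 log2 units and 91% of those of 1, with 13 false calls among 157. The simulated errors were normal and independent between genes and arrays, so variation shared by many genes of an array was not covered. Figures used Python 3.11.15. Members called, members whose genotypes did not overlap and 8 preset steps are given by array, and of other genes those called or, with none called, the 2 with the smallest p per list. Alternatives covered probe set choice, dim genes, scaling, the variance model, array weights, a replicate block, marker levels as covariates and each array left out. The members and lists were chosen with earlier results of these data known. Same-numbered samples were not fitted as pairs, except in the replicate block, because the labels do not state a pairing. Their deviations from the group means correlated between -0.10 and 0.09, which cannot show whether they were paired.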

Additional observations from a re-analysis of the deposited data

Results flagged for a closer look

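Among 74 sets of values (each member, both branch levels and their difference in each genotype), 6 held 1 array standing far from the others of its group. Chance flags about 1 in 20. Acss2 in Tsc1-/- replicate 1 read 8.95, against 9.55 to 9.72 in the other Tsc1-/- arrays, and its second probe set was also lowest there (8.26 against 9.02 to 9.18). Elovl6 in Tsc1-/- replicate 3 read 5.32, against 5.97 to 6.11. WT replicate 3 was high in Fdps (6.45 against 6.18 to 6.22), Fasn (7.81 against 7.63 to 7.65) and Elovl5 (9.89 against 9.55 to 9.60). WT replicate 2 was high in Lbr (10.05 against 9.91 to 9.93).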

How the results depend on the processing

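Against 6 members called as reported, limma called 5 with probe sets averaged per gene (4 of the 6 and Mvd; Cyp51 was then 0.24 and Fads1 0.24, adjusted p = 0.202 and 0.0961), 4 with probe sets not joined (3 of the 6 and Stard4; chosen after seeing the data), 7 with dim genes left out or an adjusted p under 0.1 (the 6 and Mvd), 1 (Cyp51) after quantile normalization or removal of each array's trend on level, 0 with the replicate block, the macrophage level or the proliferation level, and 0 to 4 with 1 array left out. The block effectively drops Tsc1-/- replicate 5, which has no WT partner. In that fit 0 of all genes were called, and 12 members and 2354 of 17097 genes had an unadjusted p under 0.05. With dim genes left out 26 members were tested, and 542 of 8549 genes were called higher. Of 17097 genes, 174 were called higher with probe sets averaged, 43 after quantile normalization and 45 with the trend removed. Over all genes, higher genes were 75.8% of calls as deposited, 55.8% after quantile normalization and 57.7% with the trend removed. All 6 kept a positive difference in all 20 alternatives run for each. With 1 array left out their sign could not change, because the genotypes did not overlap in any of the 6. With dim genes left out, another variance model or probe sets not joined, their differences were the same as reported. Cyp51 passed in 13 of the 20 alternatives, Idi1 in 9, Dhcr7 in 8, Insig1 in 6, and Fdps and Fads1 in 5 each. The median sterol difference was 0.20 with the mean of probe sets, 0.17 with the proliferation level and 0.23 to 0.28 with 1 array left out. The fatty acid median was -0.0882 with the proliferation level and -0.01 to 0.06 with 1 array left out, and the sterol minus fatty acid difference, 0.26 as reported, was 0.18 with dim genes left out (14 sterol and 7 fatty acid enzymes) and 0.24 to 0.29 with 1 array left out. Some uncalled members changed sign. Scap was 0.0062 with median centring, 0.0728 with the proliferation level and -0.1025 to 0.0489 with 1 array left out. Acaca was -0.056 after quantile normalization, -0.0382 after trend removal, -0.0096 with array weights, -0.0126 with the replicate block and -0.0438 to 0.0572 with 1 array left out. Fasn was -0.0882 with the proliferation level and Scd1 0.0118 with the macrophage level. The cause of these changes was not tested. The number of arrays limits the precision.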
